A study of Mus musculus with 2 samples.

Results

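Heterotrimeric G protein subunits and the RGS proteins that switch them off were followed through the ribosome-bound RNA of the mouse dentate gyrus. The members were every gene line whose symbol names a Gα, Gβ1 to Gβ5 or Gγ subunit, or starts with Rgs and a number, which gave 56 of 32531 gene symbols. They comprise 16 Gα, 5 Gβ and 12 Gγ genes, 21 RGS genes, and Rgs7bp and Rgs9bp, which encode membrane anchors of RGS proteins. Both libraries belong to 1 group, adult untreated mice of the Lypd1-TRAP line OI82, which carries an EGFP/Rpl10a transgene, and both were made from material pulled down with anti-EGFP antibodies. In translating ribosome affinity purification (TRAP) a tagged ribosomal protein is made only in the cells where the driving gene's regulatory sequence, here that of Lypd1, is active. No input RNA, untagged tissue or second line was analysed here, so the values are levels in pulled-down RNA, not enrichments. Strain, sex, exact age and the number of animals behind a library are not given in the labels, and the spread between replicates may be partly technical.

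A Gα subunit bound to GDP sits with a Gβγ pair at the membrane, and an activated receptor makes it exchange GDP for GTP and let the pair go. Gαs and Gαolf stimulate adenylyl cyclase, the Gαi group inhibits it, Gαq and Gα11 activate phospholipase C beta, and Gα12 and Gα13 act through exchange factors of the GTPase RhoA. RGS proteins speed the hydrolysis of GTP on Gα and so shorten the signal. In the hippocampus this cycle carries the signals of metabotropic glutamate, GABA-B, serotonin, dopamine, acetylcholine, adenosine and opioid receptors.

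Replicate 1 held 31309643 counts on gene lines and replicate 2 held 32711412. Each level is a gene's count per 1000000 counts of all gene lines (CPM). Members and pathway genes are ordered against each other mainly in CPM per kilobase of exon. Medians, marker sums and some single genes are given in CPM without length, which also depends on gene length. A count of 0 allows up to 3 counts, or 0.0958 CPM in replicate 1 and 0.0917 CPM in replicate 2, for counting error only. All 5 markers of granule cells, the main neurons of the labelled tissue, were detected and summed to 2581 and 2652 CPM in replicates 1 and 2. The 3 mossy cell markers summed to 54.6 and 33.8 CPM, the 6 GABAergic markers to 73.8 and 121 CPM, and the 5 microglial markers to 2.11 and 1.90 CPM, with C1qa and C1qb at 0. Markers of other cells were found too. In sum the 4 oligodendrocyte markers were at 162.5 and 119 CPM and the 3 CA1 markers at 105 and 78.2 CPM. Single genes made up most of these sums, Mbp at 126 and 99.3 CPM and Wfs1 at 73.5 and 59.95 CPM. Likewise Ajap1, at 50.8 and 32.0 CPM, made up most of the mossy cell sum. With 1 group of 2 libraries no test between conditions exists, so no p-value is given.

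The ribosome-bound RNA held most of the G protein machinery, and in each subunit family a few members took most of the level. Of the 56 members 35 were detected, meaning that each library gave 1 CPM or more, which is 62.5% against 38.1% of all gene symbols. The detected members had a median of 88.7 CPM, against 22.5 CPM over all 12402 detected genes. Together the 56 members took 0.901% of gene counts in replicate 1 and 0.862% in replicate 2. Another 6 members, Gna15, Gnat3, Gngt1, Rgs1, Rgs18 and Rgs21, had no count in either library, and 5 reached 1 CPM in replicate 1 alone (Gng13, Gng5, Rgs13, Rgs6 and Rgs3). The plot of levels by member shows this spread.

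**Figure D1:**
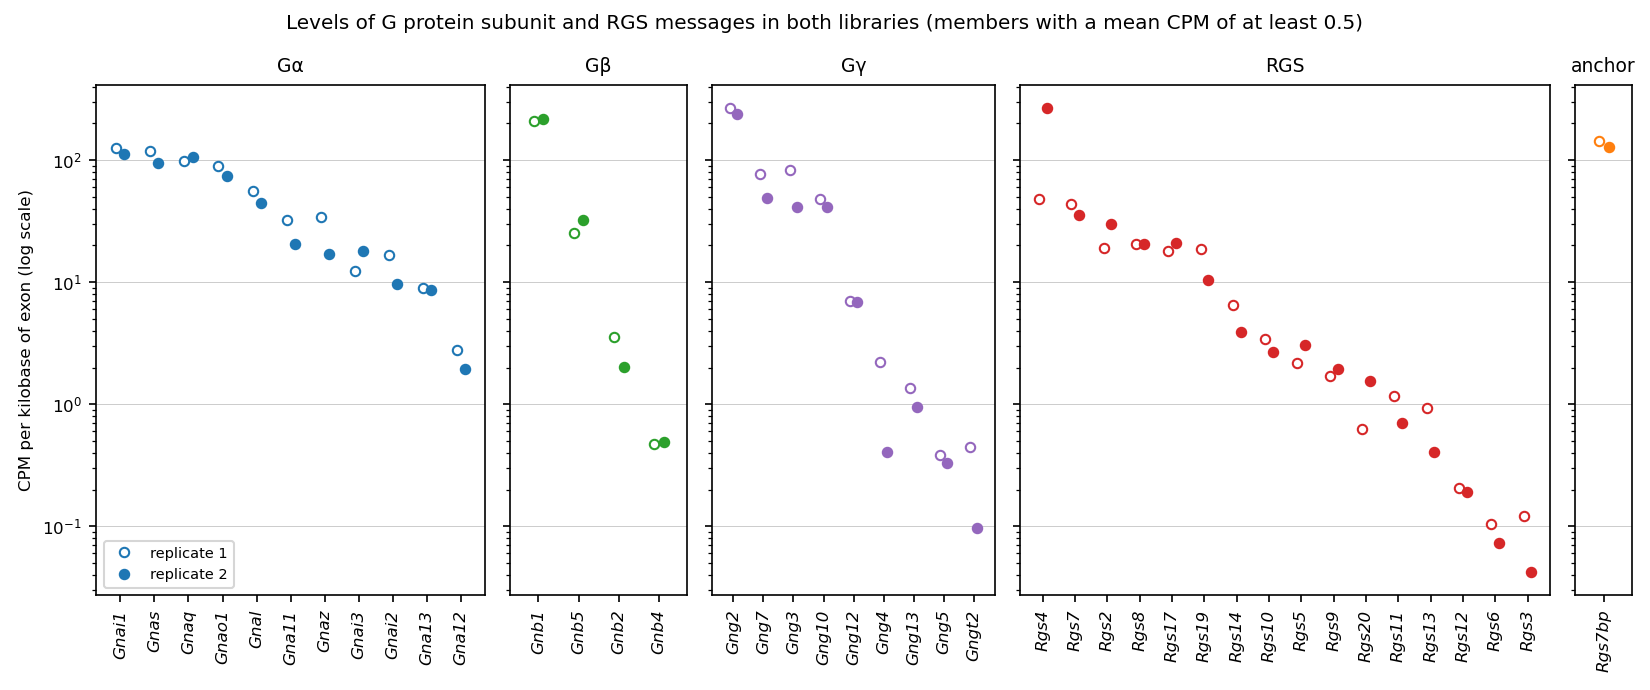
Level of each member whose mean CPM reached 0.5, in CPM per kilobase of exon on a log axis, by family, with replicate 1 as open and replicate 2 as filled circles. Gnai1, Gnb1, Gng2 and Rgs7bp stood above 100 in both libraries, while Rgs4 was at 47.8 in replicate 1 and 268 in replicate 2.

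Among Gα genes, 11 of 16 were detected, and members of the Gs, Gi/o and Gq classes stood close together at the top. Gnai1, which encodes an inhibitor of adenylyl cyclase, was at 125 CPM per kilobase in replicate 1 and 112 in replicate 2. Gnas, the stimulatory subunit gene, was at 118 and 93.8, and Gnaq, which couples receptors to phospholipase C beta, at 99.1 and 106. Gnai1 lay above Gnaq in both libraries, while the range of Gnas overlapped with those of both. Gnao1, the Gαo gene known for its abundance in brain, came next at 88.8 and 74.3 CPM per kilobase, below Gnaq in both libraries.

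The order at the top depended on the length used. Gnas, Gnao1 and Gnal have about 11 kilobases of annotated exon each, much of it in alternative forms. Per kilobase of the longest annotated transcript, Gnas led at 334 and 266, followed by Gnao1 at 178 and 149. Gnai1 was unchanged at 125 and 112, while Gnaq, at 109 and 116, was above it in replicate 2. Gnas is an imprinted locus with several start sites, and its line pools their products. Opposite-strand genes overlap 22% of its exon bases in the GENCODE annotation, and the strand setting of the counting is not given in the sources used here.

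Gnal, the Gαolf gene known as the main stimulatory subunit of striatal and olfactory sensory neurons, was abundant in the purified RNA. Its counts were 19694 in replicate 1 and 16266 in replicate 2, or 629 and 497 CPM and 56.3 and 44.5 CPM per kilobase. Its level per kilobase was 0.477 times that of Gnas in replicate 1 and 0.475 times in replicate 2, and 0.328 and 0.326 times per kilobase of the longest transcript. Of the striatal projection neuron markers examined beside it, Pde10a was at 126 and 110 CPM and Ppp1r1b at 9.13 and 9.54 CPM, while Adora2a had no count.

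The other inhibitory subunits were lower than Gnai1. Gnaz, a Gi-class subunit that pertussis toxin does not modify, was at 34.1 CPM per kilobase in replicate 1 and 16.9 in replicate 2. Gnai2 was at 16.6 and 9.70 and Gnai3 at 12.25 and 17.9, so their order switched between the libraries. The Gi/o class as a whole held 46.6% of the Gα level per kilobase in replicate 1 and 45.6% in replicate 2, and the Gs class 29.3% and 27.3%. Per kilobase of the longest transcript the Gs class was the higher, with 45.2% and 43.2% against 38.5% and 38.3%.

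Gna11, the close relative of Gnaq, was at 32.3 and 20.4 CPM per kilobase. Gnaq was 3.07 times as high in replicate 1 and 5.20 times in replicate 2. Gna13 stood at 8.89 and 8.67 CPM per kilobase and Gna12 at 2.79 and 1.93, and both together made up 1.97% and 2.09% of the Gα level. Of the Gα genes known from other tissues, Gnat1 of rod photoreceptors had 10 counts and 1 count, Gnat2 of cones 2 counts in each library, and Gna14 1 count in replicate 2. The gustducin gene Gnat3 and the blood cell gene Gna15 had none.

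Gβ was carried by 1 gene. The counts of Gnb1 were 27793 in replicate 1 and 30337 in replicate 2, or 888 and 927 CPM and 208 and 217 CPM per kilobase. It held 87.6% of the Gβ level per kilobase in replicate 1 and 86.2% in replicate 2. Its share of Gβ counts was 90.1% (95% exact binomial interval 89.8 to 90.4) and 89.1% (88.7 to 89.4). Gnb5, the divergent Gβ that pairs with RGS proteins of the R7 group, was second at 25.5 and 32.2 CPM per kilobase, and Gnb1 was 8.16 and 6.76 times as high.

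Gnb2 was at 3.57 and 2 CPM per kilobase and Gnb4 at 0.473 and 0.487. No pair of neighbours in this order overlapped in range. Gnb3, the cone photoreceptor subunit, had no count in replicate 1 and 23 counts in replicate 2, and was not detected at the minimum of 1 CPM.

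Among Gγ genes, which carry the lipid anchor of the Gβγ pair, Gng2 led in both libraries. It was at 268.5 CPM per kilobase in replicate 1 and 240.2 in replicate 2, and held 54.9% and 63.1% of the Gγ level. Opposite-strand exons overlap 20.4% of its exon bases in the annotation. Gng7, known as the partner of Gαolf in the striatum, was at 77 and 48.5 CPM per kilobase, and the neuronal Gng3 at 83.6 and 41.4. Each was lower in replicate 2, and the ranges of Gng7, Gng3 and Gng10 overlapped from one to the next.

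Gng10 was at 48.2 and 41.3 CPM per kilobase, but 72.0% of its exon bases lie under another annotated gene, Gm20503, so its level is uncertain. Gng12 was steady at 7.07 and 6.87 CPM per kilobase. Gng4 had 233 counts in replicate 1 and 44 in replicate 2, or 2.23 and 0.403 CPM per kilobase. The 6 Gγ genes that were not detected were Gng5, Gng8, Gng11, Gng13, Gngt1 and Gngt2. Gng5 had 33 and 30 counts, and 5.94% of its 50-base windows recur in transcripts of other genes, among them its pseudogene, so its counts are uncertain. Gng13 overlaps Chtf18 on the opposite strand over 51.6% of its exon bases.

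**Figure D2:**
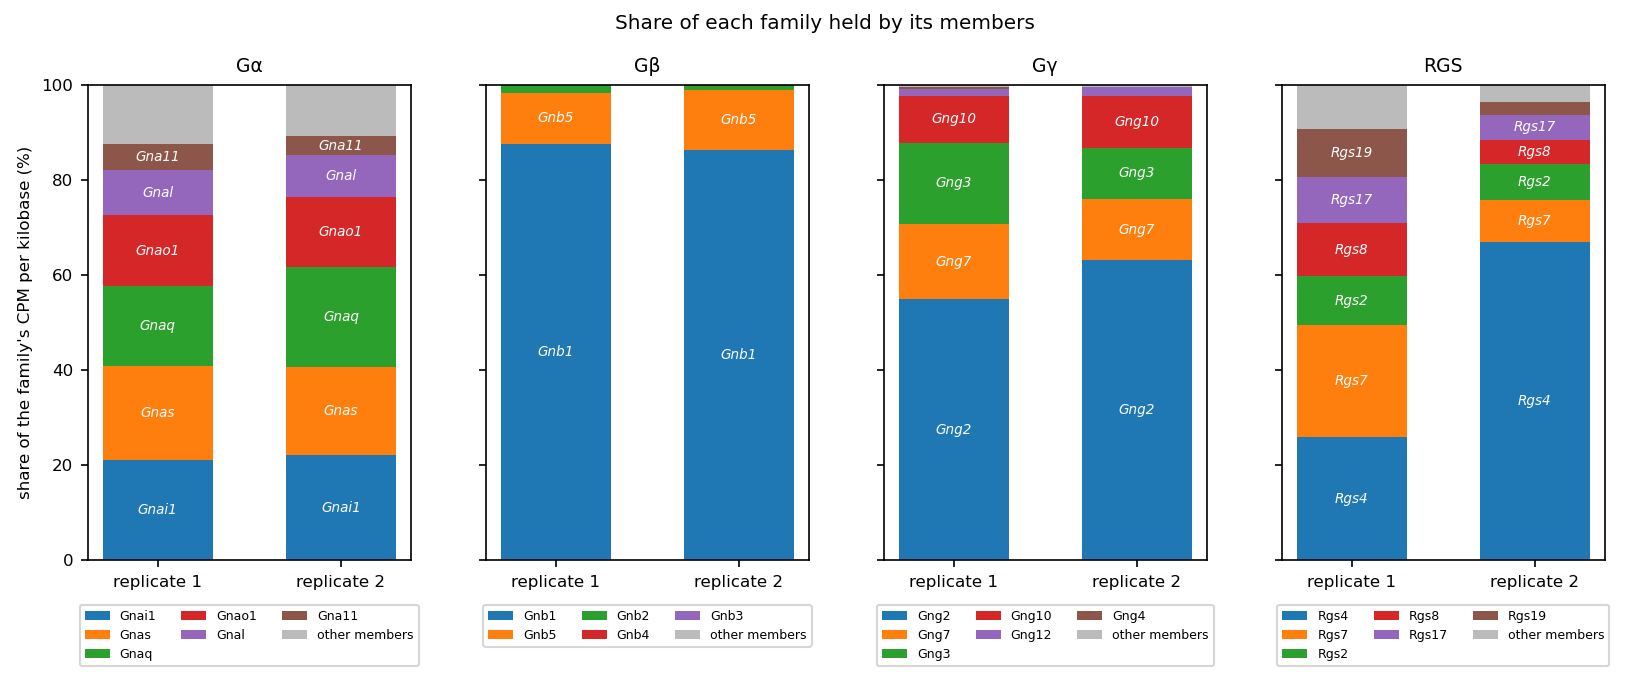
Share of each family's summed CPM per kilobase held by its 6 highest members, as stacked bars from 0 to 100% for each library, with the remaining members in grey. Gng2 took 54.9% of the Gγ bar in replicate 1 and 63.1% in replicate 2, and Rgs4 took 25.9% of the RGS bar in replicate 1 and 67.0% in replicate 2.

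RGS genes were split between a few abundant members and many near or below the detection minimum. Of 21 RGS genes 13 were detected, and 6 stood above 10 CPM per kilobase in both libraries: Rgs4, Rgs7, Rgs2, Rgs8, Rgs17 and Rgs19. The summed level of all 21 RGS genes was 184.5 CPM per kilobase in replicate 1 and 401 in replicate 2. Without Rgs4 the sums were 137 and 132, so the gap lay in 1 gene. By class, the R4 group held 49.1% of the RGS level in replicate 1 and 80.5% in replicate 2, the R7 group 25.1% and 9.52%, and the RZ group 20.2% and 8.25%.

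In the R4 group of small RGS proteins, Rgs8 was the member that differed least. Its counts were 6191 in replicate 1 and 6509 in replicate 2, or 20.5 and 20.6 CPM per kilobase. Rgs2, which acts with preference on Gαq, was at 19.0 and 29.9 CPM per kilobase. Rgs4, which acts on Gi/o and Gq subunits, was the highest RGS gene per kilobase of exon in both libraries. Of the 12 neighbouring pairs in the order of detected RGS genes, 5 overlapped in range. In replicate 1 it lay close to Rgs7, at 1.10 times its level, and per kilobase of the longest transcript it was at 0.710 times the level of Rgs7 there. In replicate 2 it was 7.58 times as high as Rgs7.

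Other R4 genes were scarce. Rgs5, a marker of pericytes, was at 9.90 and 13.8 CPM, or 2.18 and 3.05 CPM per kilobase. Of the 4 pericyte and smooth muscle markers, which summed to 7.95 and 6.02 CPM, 2 were detected and none was at 0. They differed in opposite directions, with Kcnj8 at 4 and 35 counts and Abcc9 at 61 and 101. Acta2 had 63 and 2 counts and Pdgfrb 121 and 59. Rgs13 had 48 and 22 counts, Rgs3 41 and 15, and Rgs16 9 and 16. Rgs1 and Rgs18, known from blood cells, and Rgs21 of taste cells had none.

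The R7 group works as a complex in which the RGS protein binds Gβ5 and a membrane anchor, and all of these parts were present. Rgs7 was at 261 and 213 CPM, or 43.3 and 35.4 CPM per kilobase, and held 93.6% of the R7 level in replicate 1 and 92.8% in replicate 2. Gnb5 stood beside it at 25.5 and 32.2 CPM per kilobase. The anchor gene Rgs7bp had 31748 counts in replicate 1 and 29363 in replicate 2. That is 143 and 127 CPM per kilobase, 3.31 and 3.58 times the level of Rgs7, and 2.02 and 2.19 times per kilobase of the longest transcript.

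The orphan receptor Gpr158, which also anchors R7 proteins and is no member of the set, was at 19.9 and 17.7 CPM per kilobase. The retinal partners were near 0, with 5 counts and none for Rgs9bp and 9 and 2 for Gpr179. Rgs9, best known from striatum and photoreceptors, was at 10.8 and 12.5 CPM, and Rgs11 at 4.92 and 2.97 CPM. Rgs6 had 33 and 24 counts and was not detected.

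In the RZ group, whose members act with preference on Gαz, Rgs17 was at 18.0 and 21.0 CPM per kilobase. Rgs19 was at 18.7 and 10.5, close to Rgs17 in replicate 1 and well below it in replicate 2. Rgs20 had 84 counts in replicate 1 and 213 in replicate 2, so Rgs17 was 28.5 and 13.7 times as high per kilobase. In the R12 group, Rgs14, a scaffold known as a marker of CA2 pyramidal cells, was at 27.4 and 16.6 CPM. The 4 CA2 markers examined summed to 29.3 and 23.6 CPM, 2 of them were detected and none was at 0, and most of the sum was Cacng5 at 23.5 and 14.9 CPM. The part of other cells in the level of Rgs14 was not tested. Rgs10, which in brain is known from microglia and neurons, was at 5.88 and 4.59 CPM. Rgs12 was at 1.76 and 1.62 CPM and Rgs22, known from testis, at 0.543 and 0.397 CPM.

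The 2 libraries were then set against each other by the log2 ratio of replicate 2 to replicate 1, scaled by edgeR's trimmed mean of M values (TMM) with a prior count of 2. Only Rgs4 was past 2-fold among the 27 members whose mean CPM reached 10, and no member was 2-fold lower. Over all 8442 genes at that level 2.18% were 2-fold higher in replicate 2 and 1.01% 2-fold lower, 3.19% together. The count of 1 in 27 is near that background and says nothing particular about the set. Differences past 1.5-fold were found for 8 of 27 members (Rgs4, Rgs2, Gnai3, Gnaz, Gng3, Gnai2, Rgs14 and Rgs19), against 16.6% of all genes. The median log2 ratio was -0.07 for the 27 members and 0.03 for all 8442 genes. In bulk RNA fewer cells of a type and less RNA per cell cannot be told apart.

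**Figure D3:**
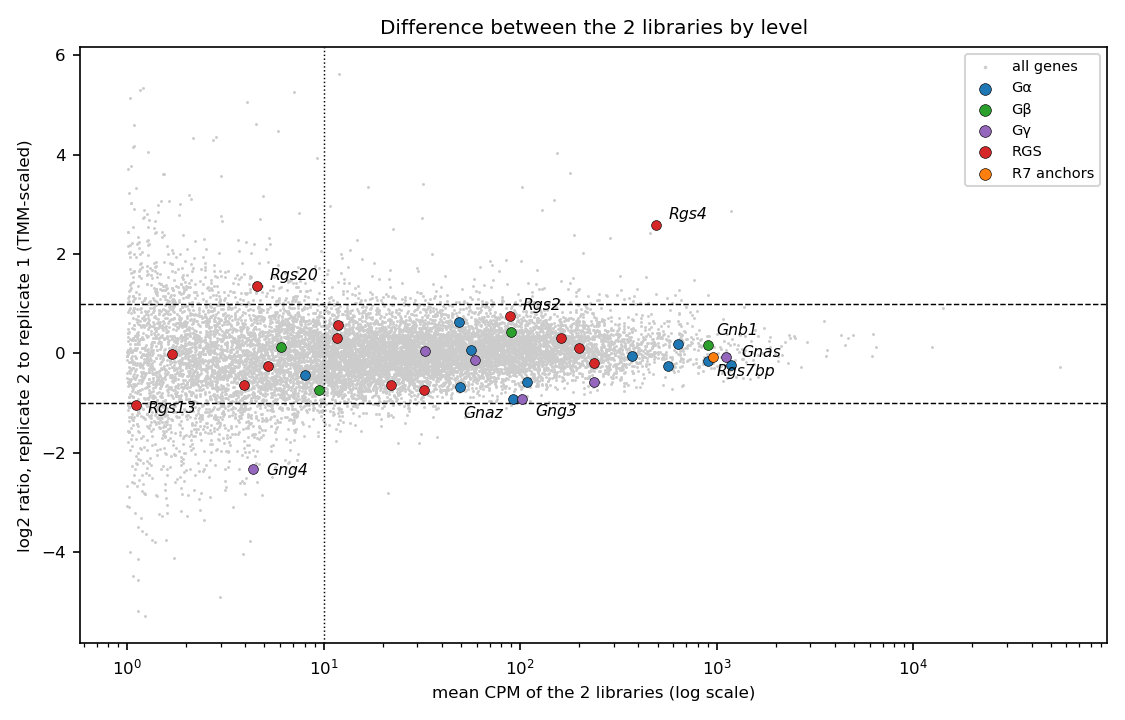
Log2 ratio of replicate 2 to replicate 1 against mean CPM on a log axis, for all genes averaging 1 CPM or more (grey) and for the members by family (coloured). Dashed lines mark 2-fold and the dotted line a mean CPM of 10, and Rgs4 lies at 2.58, far from every other member at its level.

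Rgs4 stood apart in size. It had 4634 counts in replicate 1 and 27202 in replicate 2, or 148 and 832 CPM, a mean of 490 ± 483 CPM (SD, n = 2). By CPM replicate 2 was 5.62 times as high, a log2 ratio of 2.49 from library totals alone. With TMM scaling the log2 ratio was 2.58, with a 95% counting interval of 2.54 to 2.63. By this ratio it ranked 12 of the 8442 genes averaging 10 CPM or more and 7 of the 2214 genes at 100 or more. Its share of all RGS counts was 15.8% (95% exact binomial interval 15.4 to 16.3) in replicate 1 and 51.6% (51.2 to 52.0) in replicate 2.

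Rgs2 differed in the same direction and less. It had 2156 and 3553 counts, 68.9 and 109 CPM, with a log2 ratio of 0.75 (0.67 to 0.83). It ranked 432 of 8442 genes. Rgs5 (0.57, interval 0.36 to 0.79) and Gnai3 (0.64, interval 0.53 to 0.74) were also higher in replicate 2, as was Gnb5 (0.43, interval 0.35 to 0.50), while Rgs8 at 0.10 (0.05 to 0.15) and Rgs17 at 0.31 (0.26 to 0.37) differed little.

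Rgs4 lies on chromosome 1 from 169741477 to 169747642 on the minus strand (GRCm38), and its nearest RGS neighbour there, Rgs5, lies from 169655501 to 169695813 on the plus strand, 45.7 kilobases away. The mouse holds 11 of the 23 Rgs symbols on this chromosome. Close neighbours stood at very different levels per kilobase. Rgs4 was 21.9 times as high as Rgs5 per kilobase in replicate 1 and 88.1 times in replicate 2. In the run of Rgs2, Rgs13, Rgs1, Rgs21 and Rgs18, Rgs2 was at 19.0 and 29.9 CPM per kilobase, Rgs13 at 0.926 and 0.406, and the other 3 at 0. Rgs8 was at 20.5 and 20.6 CPM per kilobase, while Rgs16, 40.0 kilobases from it, was at 0.123 and 0.209.

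The promoter windows of Rgs4 and Rgs2, the members with the largest ratios at 10 CPM or more, and of Rgs5, the chromosomal neighbour of Rgs4, are shown for comparison. They are RefSeq windows of build GRCm38.p6 from 250 bases before to 50 after the start, at chr1:169747593-169747892 (minus strand), chr1:144004100-144004399 (minus) and chr1:169655251-169655550 (plus). They read along the strand of the gene. Capitals mark matches on either strand to TGACG, the core of the cAMP response element, to the TATA box letters TATAAA, to the CCAAT box, and to GCGNGGGCG, the site of EGR factors.
Rgs4: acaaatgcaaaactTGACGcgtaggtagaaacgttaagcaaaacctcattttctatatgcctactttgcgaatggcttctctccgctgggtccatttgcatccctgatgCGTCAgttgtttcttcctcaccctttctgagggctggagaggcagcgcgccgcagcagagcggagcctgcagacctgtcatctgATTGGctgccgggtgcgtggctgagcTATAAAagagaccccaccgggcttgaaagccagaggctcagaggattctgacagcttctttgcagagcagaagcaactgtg
Rgs2: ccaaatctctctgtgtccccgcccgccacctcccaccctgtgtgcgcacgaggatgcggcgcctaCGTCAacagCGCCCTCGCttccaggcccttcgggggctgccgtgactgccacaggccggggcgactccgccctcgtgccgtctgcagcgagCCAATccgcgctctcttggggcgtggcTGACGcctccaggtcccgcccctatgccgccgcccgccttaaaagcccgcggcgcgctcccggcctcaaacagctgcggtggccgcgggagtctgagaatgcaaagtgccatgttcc
Rgs5: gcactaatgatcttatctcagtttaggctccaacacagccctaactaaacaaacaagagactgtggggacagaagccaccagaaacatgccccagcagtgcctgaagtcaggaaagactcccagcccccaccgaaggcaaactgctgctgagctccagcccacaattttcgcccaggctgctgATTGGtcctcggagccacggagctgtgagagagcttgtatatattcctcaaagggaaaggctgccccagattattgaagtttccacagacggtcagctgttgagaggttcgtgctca

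The Rgs4 window holds TGACG at -236 and -141 from the start, CCAAT at -57 and TATAAA at -31, counted to the first base of each match. The Rgs2 window holds TGACG at -185 and -67, the EGR letters at -176 and CCAAT at -94. The Rgs5 window holds CCAAT at -67 alone. At least 1 TGACG is found in 20.8% of all 32851 windows of this length and at least 2 in 5.01%. TATAAA is found in 13.6%, CCAAT in 37.4% and GCGNGGGCG in 5.55%. The Rgs2 window has 70% G and C bases and 33 CG pairs, Rgs4 53% and 13, and Rgs5 52.3% and 6. The medians of all windows are 52.7% and 7. TGACG and GCGNGGGCG contain CG, and their rates among windows of like composition were not computed. Windows were found for 41 of the 56 members, 54 windows in all, of which 14 hold TGACG. The 4 symbols with at least 2 such sites were Rgs4, Rgs2, Gnb1 and Gng4, with log2 ratios of 2.58, 0.75, 0.16 and -2.32. No member window holds the full element TGACGTCA, which is in 1.79% of all windows, or a CArG box (1.63%). TGANTCA, the AP-1 site, is in 4 member windows (7.81% of all windows) and the MEF2 motif in 1 (3.19%), none of them among these 3 genes. TGACG lies within TGACGTCA. A match is a description of the letters and no evidence of binding.

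Of the 27 members compared, 15 were lower in replicate 2, against 47.2% of all genes. This count is near that background and says nothing particular about the set. Gnaz had 3860 and 1994 counts, 123 and 61.0 CPM, with a log2 ratio of -0.92 (-1 to -0.85). Gng3 had 4300 and 2225 counts, 137 and 68.0 CPM, also at -0.92 (-1 to -0.85). Bscl2 on the opposite strand overlaps 24.2% of the exon bases of Gng3. Gnaz and Gng3 ranked 122 and 124 from the lowest ratio of 8442 genes, and both passed 2-fold when library totals alone were used. Gna11 (-0.57), Gng7 (-0.57), Gnai2 (-0.68), Rgs14 (-0.63) and Rgs19 (-0.73) were lower as well. Of the 10 Gα genes compared, 7 were lower in replicate 2, of the 5 Gγ genes 4, and of the 2 Gβ genes none. Of the 9 RGS genes 3 were lower, as was the 1 anchor gene. With library totals alone Gna13 and Gng12 were lower too, and the share of all genes under that scaling was not computed.

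The sums of several marker lists were lower in replicate 2. The 3 CA1 markers, all detected, summed to 105 and 78.2 CPM, and the 4 oligodendrocyte markers, all detected, to 162.5 and 119 CPM. The 3 CA3 markers, all detected, summed to 33.9 and 26.9 CPM. Counting intervals of the log2 ratio spanned 0 for Bok (-0.32 to 0.11) and Iyd (-0.52 to 0.14) but not for Grik4 (-0.56 to -0.17). The mossy cell and CA2 sums given above were lower in replicate 2 too, with 2 of 3 mossy cell markers detected. The CA2 sum fell through Cacng5 alone, while Amigo2, at 4.92 and 7.15 CPM, Map3k15 and Pcp4 were higher in replicate 2. The mossy cell marker Drd2 had 8 and 11 counts. The granule cell markers were level in sum, at 2581 and 2652 CPM, but Dsp was at 252 and 329 CPM and Calb1 at 366 and 280 CPM. The summed level of the 6 GABAergic markers, of which 3 were detected and none was at 0, was 73.8 CPM in replicate 1 and 121 CPM in replicate 2. That difference came from Gad1, at 50.02 and 75.6 CPM, and Gad2, at 19.7 and 42.8 CPM, while Sst was at 3.16 and 2.17 CPM and Slc32a1 at 0.703 and 0.367 CPM. The 2 oligodendrocyte precursor markers, both detected, summed to 6.07 and 14.98 CPM. The 4 astrocyte markers, of which 3 were detected, summed to 46.2 and 54.75 CPM. Gfap and Slc1a3 were higher in replicate 2, and Aqp4 and Aldh1l1 lower. The part of these cell types in the ratios of the members was not tested.

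Below 10 CPM, ratios rest on few counts. Of the 36 members averaging 1 CPM or more, Rgs4 and Rgs20 were 2-fold higher in replicate 2 and Gng4 and Rgs13 2-fold lower, against 4.51% and 5.75% of 13089 genes at that level, 10.3% together. Rgs20 was at 2.68 and 6.51 CPM (log2 ratio 1.35, interval 1 to 1.75) and Gng4 at 7.44 and 1.35 CPM (-2.32, interval -2.87 to -1.91). Rgs13, at 1.53 and 0.673 CPM, had a wide interval of -1.90 to -0.34.

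**Figure D4:**
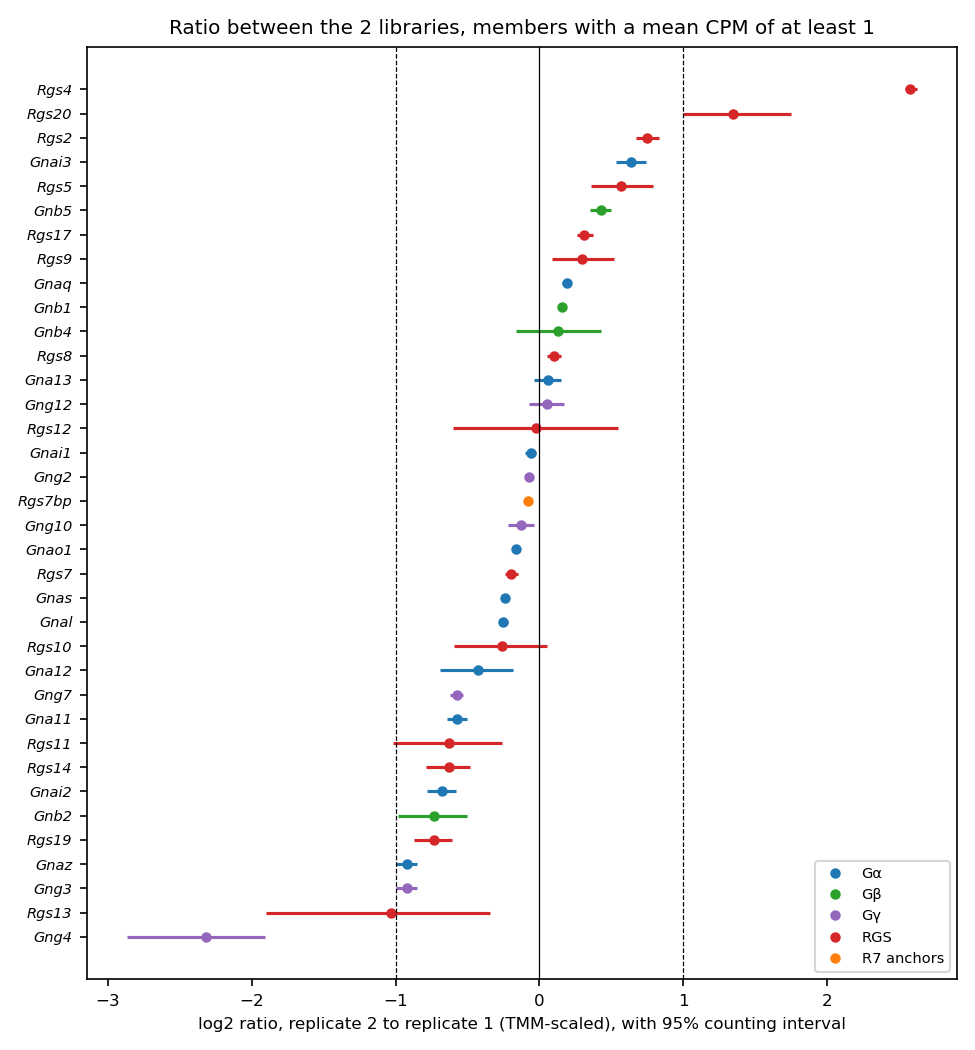
Log2 ratio of replicate 2 to replicate 1 for the 36 members averaging 1 CPM or more, ordered by ratio and coloured by family, with 95% counting intervals as bars. Dashed lines mark 2-fold, which Rgs4 at 2.58 and Gng4 at -2.32 clear in opposite directions.

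The rest of the pathway, 62 genes in 10 lists, was measured beside the members. Of these 50 were detected, against 38.1% of all gene symbols. None of the 38 averaging 10 CPM or more was past 2-fold in either direction, against 3.19% of all genes, so this count is near the background. Below that level Adcy7, an adenylyl cyclase gene named after its values were seen, had 231 counts in replicate 1 and 12 in replicate 2, with a log2 ratio of -4.03 (-5.21 to -3.41). Their median log2 ratio was -0.07. All 5 targets of G12/13 and Gq and all 4 arrestins were detected. Of the arrestins, Sag, at 2.97 and 2.14 CPM, and Arr3, at 1.37 and 1.77 CPM, were near the minimum of 1 CPM. Also detected were 9 of 10 RGS-homology proteins outside the set, 8 of 10 adenylyl cyclases, 5 of 6 receptor kinases and 8 of 12 receptor-independent regulators.

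The calcium-stimulated cyclase Adcy1, an effector of Gα, was the highest gene of all these lists per kilobase, at 115 and 99.9. Cct2, a subunit of the chaperonin that folds Gβ, was at 56.8 and 67.0 CPM per kilobase, and the exchange factor gene Kalrn at 52.8 in each library. Kcnj3, a subunit of the potassium channel opened by Gβγ, was at 51.2 and 42.2. Arhgef12, the exchange factor that links Gα12 and Gα13 to RhoA, was at 36.0 and 37.5, well above Gna13 and Gna12 themselves.

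Plcb1 was at 30.5 and 33.4 CPM per kilobase and held nearly all of the phospholipase C beta list, since Plcb4 was next at 1.16 and 0.610. Ccdc88a, a receptor-independent activator, was at 25.9 and 26.9, Arrb2 at 16.1 and 10.7, and the receptor kinase gene Adrbk1 at 15.8 and 9.64. Gprin2 and Pdc had no count in either library.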

How the data were processed

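Ribosome-bound RNA of the dentate gyrus was sequenced in 2 libraries of 1 group. Counts per gene symbol were deposited by the authors and are not normalised. The submitters' processing notes name STAR 2.0.0e, HTSeq and build mm10, while annotation and strandedness of the counting were not given in the sources used here. HTSeq summary lines and a line named unknown, with 0 counts, were kept out of totals, and 65.0% and 64.9% of counts were on gene lines. CPM was computed from these totals. Exon lengths, positions and overlaps came from GENCODE M21 (GRCm38), which matched all 56 members. Some older symbols in the pathway lists were matched to current ones. Levels are given by library or as mean ± SD. Log2 ratios used edgeR 4.0.16 TMM scaling and a prior count of 2, with exact Clopper-Pearson intervals of the counts, which cover counting error only. DESeq2 1.42.0 size factors, library totals, another prior count, other detection minimums, other lengths and single libraries were alternatives. The chi-square statistic of the counts of the 2 libraries was 67.8 times its degrees of freedom, so they were kept as separate samples. Ratios were tested on simulated libraries, which checks the code and says nothing on the spread between these 2 libraries. Every member could be named, and of each pathway list its highest gene per kilobase and any gene at 0. Plcb4, Adcy7, Gpr179, Sag, Arr3 and the single marker genes were added after their values were seen. Members and lists were chosen with earlier results of these data known. A striatal marker gene is not reported here.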

Additional observations from a re-analysis of the deposited data

Results flagged for a closer look

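With 1 group of 2 libraries no library can stand out from its group. Some reads lay outside the lines per gene and entered none of the comparisons above, at levels over the limit that a count of 0 allows. Those that met no annotated feature were 16.7% of the total in replicate 1 and 17.0% in replicate 2. Those over several genes were 2.61% and 2.56%, and those with more than 1 alignment were 15.7% and 15.5%. Whether reads of members with overlapping exons or pseudogenes are among them was not tested.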

How the results depend on the processing

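No paired analysis was possible because there is only 1 group. Of the 56 members 30 to 41 were detected under the other minimums, and 35 and 40 in replicate 2 and replicate 1 alone. Limiting the count to members without exon overlap, chosen after seeing the data, left 20. The share held by Gnai1, 21.5% of the Gα level, was 13.2% per kilobase of the longest transcript and 9.24% in CPM without length, where Gnas led. Gnb1 held 86.8% of the Gβ level, 85.5% by longest transcript and 89.6% without length, and Gng2 58.5% of the Gγ level and 71.8% without length. Single libraries gave 21.0 to 22.2% for Gnai1, 86.2 to 87.6% for Gnb1, 54.9 to 63.1% for Gng2 and 25.9 to 67.0% for Rgs4. Members past 2-fold numbered 1 of 27, against 3.19% of all genes, and 4 of 36 at a mean CPM of at least 1, against 10.3%. They numbered 3 with library totals alone (Rgs4, Gnaz and Gng3) and 11 with no minimum. For these 2 settings the share over all genes was not computed, so the counts say nothing particular about the set. The 11 include members with few counts, such as Gng8 with 0 and 2. The median log2 ratio of members lay between -0.16 and -0.06. Of 36 members compared, Gna13 and Gng12 changed sign with the scaling, and the counting interval of each spans 0. Depth limits the 9 members averaging 1 to 10 CPM, whose counting intervals are wide, and a ratio needs both libraries, so none could be recomputed with 1 left out.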
